A study of Mus musculus with 11 samples.

Results

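The microvillus actin core and the villin family were read in 10 genes: Vil1, Capg and Gsn of the villin and gelsolin family, Pls1 and Eps8 of the actin bundle, Ezr and Myo1a that tie the bundle to the membrane, and Cdhr2, Cdhr5 and Ush1c that link neighbouring microvilli. Members were every probe whose annotation carries one of these symbols or an older synonym, which gave 15 of the 45281 probes on the array, for 9 of the 10 genes, among 19057 genes named on it. Ezr was not analysed here. A probe was called measured where its detection p, the chance that a negative control bead would be as bright, was under 0.01 on 5 or more of the 11 arrays. Measured probes were thus chosen by their detection p-values, which left 13 of the 15 probes, covering the 9 genes, and detection is given below as a description.

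RNA came from villi of the small intestine of 5-month-old C57Bl/6J animals and was read on Illumina bead arrays, 1 per sample. Villin-Gremlin mice (5 arrays) carry Gremlin, an extracellular antagonist of bone morphogenetic proteins, under the Villin promoter, which is active in the intestinal epithelium. Wild type mice (6 arrays) are of the same strain and age. No label says that each array held a separate mouse, so each p-value rests on the spread among these arrays, part or all of which may be technical.

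Microvilli of enterocytes are stiffened by a core of parallel actin filaments. Villin, plastin and espin bundle the filaments, Eps8 sits at their tips, and myosin 1a and ezrin connect them to the plasma membrane. Protocadherins at the tips of adjacent microvilli bind one another and, through the scaffold harmonin, pack the microvilli into a regular brush border, where digestive enzymes and transporters are held. Gelsolin and CapG share repeated actin-binding domains with villin. Gelsolin severs and caps filaments, whereas CapG caps them without severing and is well known from macrophages.

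Array medians of the raw signal ran from 157 to 207, and 13536 to 14808 probes were detected per array. The first principal component of the 14203 kept probes separated the groups and held 49.7% of the variance. On the second component, 1 array of each group, Villin-Gremlin 5 and wild type 1, was remote from the others. The Grem1 probe, the check of the transgene, read 13.77 to 14.08 (normalized log2 signal) in Villin-Gremlin villi and 4.98 to 8.99 in wild type villi. It was detected on 2 of the 6 wild type arrays, 5 (8.99) and 1 (6.38). Among defining enterocyte markers, the named probes of Fabp1 and Fabp2 were detected on 0 arrays, while the other 10 of 12 on that list were measured. Because villi are a mixture of cells, fewer cells of a type and less RNA per cell cannot be told apart in any value below.

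Within the villin family the members went in opposite directions. The lower call, that of Vil1, was lost with any 1 of 8 arrays left out. Capg was 10.99-fold higher in Villin-Gremlin villi by its brighter probe (7.04-fold without background correction). Gsn was at least 1.78-fold higher in the background-corrected values, but its fitted fold was under that bound without the correction. Vil1 was 1.27-fold lower. Of the structural genes, Pls1, Eps8, Myo1a and Cdhr2 were 1.42 to 1.69-fold lower by at least 1 probe each, whereas Cdhr5 and Ush1c did not pass the test. Over all measured member probes, 3 were called higher and 7 lower at a limma adjusted p under 0.05, adjusted over all 14203 kept probes. Of those 14203 probes, 30.8% were called in either direction, 16.4% higher and 14.4% lower. The same 3 higher and 7 lower member probes had groups that did not overlap, which held for 18.9% of kept probes in either direction, 10.4% higher and 8.53% lower. Of the 3 higher probes, 2 were detected in Villin-Gremlin villi alone, so they could pass the detection rule only by differing. The median log2 fold change (Villin-Gremlin minus wild type) was -0.34 over the 13 measured member probes and -0.0011 over all kept probes.

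**Figure D1:**
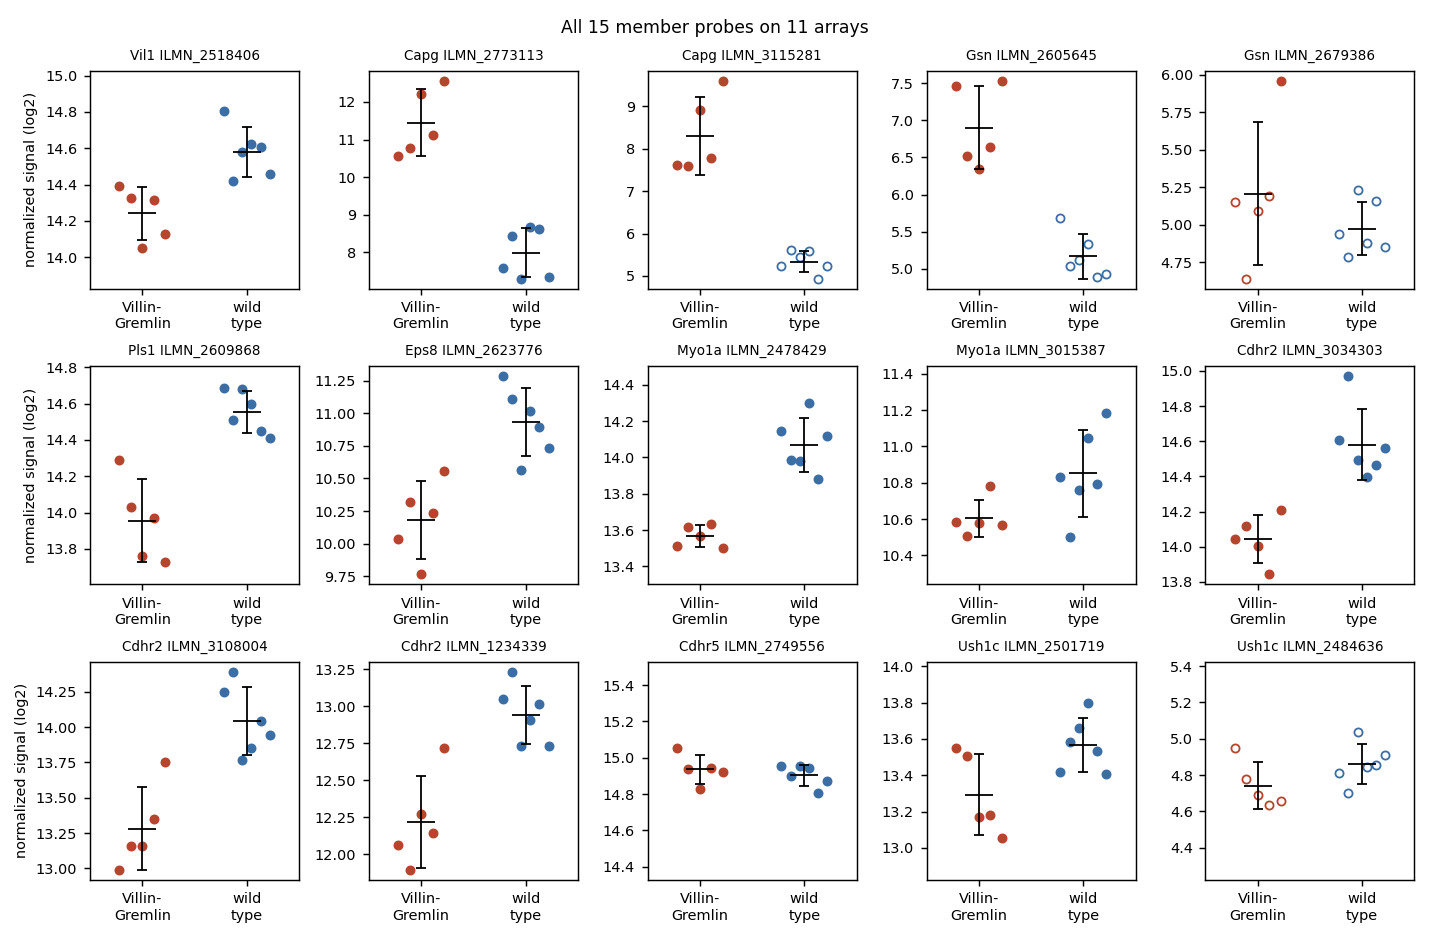
Normalized log2 signal of all 15 member probes on each array, Villin-Gremlin on the left and wild type on the right of each panel, with bars for the mean and SD (n = 5 and 6). Open circles were not detected (detection p of 0.01 or more). Both Capg probes and Gsn ILMN_2605645 sit higher in Villin-Gremlin villi without overlap, and Pls1, Eps8 and all 3 Cdhr2 probes sit lower.

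Vil1 encodes villin, which bundles actin at low calcium and severs it at high calcium, and which gives the transgene's promoter its name. No source used here says whether its probe could also read transcripts of the transgene. The RefSeq promoter window of Vil1 (GRCm38.p6, chr1:74409134-74409433, plus strand, from 250 bases before to 50 after the start) is shown because this gene's promoter is the one named for the transgene. The windows of Capg (chr6:72549397-72549696, plus strand) and Cdhr2 (chr13:54701213-54701512, plus strand) follow, as the member with the largest rise and the one with 3 probes lower. Capitals mark the motif matches described after them.
Vil1: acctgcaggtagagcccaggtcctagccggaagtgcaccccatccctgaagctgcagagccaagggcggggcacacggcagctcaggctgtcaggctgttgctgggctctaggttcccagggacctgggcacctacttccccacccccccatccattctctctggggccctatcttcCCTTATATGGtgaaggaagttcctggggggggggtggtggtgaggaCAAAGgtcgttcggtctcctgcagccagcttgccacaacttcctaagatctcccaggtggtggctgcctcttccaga
Capg: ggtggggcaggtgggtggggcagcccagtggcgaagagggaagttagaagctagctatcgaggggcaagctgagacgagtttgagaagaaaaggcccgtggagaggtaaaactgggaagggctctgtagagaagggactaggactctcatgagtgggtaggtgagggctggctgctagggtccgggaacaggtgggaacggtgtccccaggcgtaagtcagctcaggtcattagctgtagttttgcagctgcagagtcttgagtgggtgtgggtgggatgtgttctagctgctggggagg
Cdhr2: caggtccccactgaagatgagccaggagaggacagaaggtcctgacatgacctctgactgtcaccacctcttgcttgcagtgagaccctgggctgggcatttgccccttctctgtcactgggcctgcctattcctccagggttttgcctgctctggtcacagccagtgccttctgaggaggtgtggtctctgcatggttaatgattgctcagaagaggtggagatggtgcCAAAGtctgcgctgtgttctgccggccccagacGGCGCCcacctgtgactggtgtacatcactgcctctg
Promoter windows were found for 9 of the 10 member genes, 11 windows in all, with 3 for Gsn. The motifs were picked after these sequences had been seen and were searched on both strands. A CArG box, the site of serum response factor, which drives many actin genes, was found in 1 of the 11 windows, that of Vil1, starting 73 bases before the start, and in 1.63% of all 32817 promoter windows of this length. CAAAG, the core read by HNF4 and TCF factors, lay in 4 of the 11 windows (Vil1, Pls1, Cdhr2 and Ush1c) and in 54.0% of all windows. GGCGCC, a BMP response motif, was in the Cdhr2 window alone among members and in 11.9% of all windows. TTTAT, the core read by caudal homeobox factors, was in 1 window each of Gsn and Cdhr5 and in 40.0% of all windows. AGATAA, a site of zinc finger factors of the gut, was in 0 of the 11 and in 11.2% of all windows. CAAAG and the CArG box of Vil1 do not overlap. The Capg window held 0 of the searched motifs.

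The Vil1 probe ILMN_2518406 was among the bright ones of the array, detected on every array of both groups. Its normalized log2 signal was 14.39, 14.33, 14.05, 14.31 and 14.13 in Villin-Gremlin 1 to 5, against a lowest of 14.42, a median of 14.59 and a highest of 14.81 in wild type villi. Every Villin-Gremlin array was below every wild type array, by a margin of a few hundredths between the nearest pair. In the authors' log2 values the groups overlapped, with Villin-Gremlin 1 at 14.56 and wild type 2 at 14.37. The group means were 14.24 ± 0.15 in the 5 Villin-Gremlin and 14.58 ± 0.14 in the 6 wild type arrays (SD), a log2 fold change of -0.34 ± 0.12 (SE; limma adjusted p = 0.0412). The call was lost with any 1 of 8 arrays left out (adjusted p up to 0.0961, without Villin-Gremlin 3), in the authors' log2 values (0.0813) and with median scaling (0.102), while the direction held in each.

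Capg was read by a pair of probes, and both rose. Probe ILMN_2773113 was detected on all 11 arrays and read 10.56, 10.78, 12.20, 11.13 and 12.57 (normalized log2) in Villin-Gremlin 1 to 5, against 7.30 at the lowest, 8.01 at the median and 8.67 at the highest in wild type villi. The Villin-Gremlin arrays stand clear of the wild type arrays, and replicates 3 and 5 are the highest. Group means were 11.45 ± 0.89 in the 5 Villin-Gremlin and 7.99 ± 0.66 in the 6 wild type arrays (SD), a log2 fold change of 3.46 ± 0.40 (SE; limma adjusted p = 5.10e-05). In raw signal that probe ran from 1586 to 3904 in Villin-Gremlin villi and from 299.9 to 575 in wild type villi.

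Probe ILMN_3115281, annotated to another Capg transcript, was detected on 5 of 5 Villin-Gremlin and 0 of 6 wild type arrays. It read 7.62, 7.58, 8.92, 7.78 and 9.60 in Villin-Gremlin 1 to 5, and 4.94 to 5.61 in wild type villi. Replicates 5 and 3 were again the highest. This probe passed the detection rule through Villin-Gremlin villi alone, so its p-value is no separate support for its rise. As a bound against the lowest detected signal of each wild type array, it was at least 4.70-fold higher in Villin-Gremlin villi (limma adjusted p = 4.57e-05). The fitted log2 fold change of 2.96 ± 0.33 (SE) fell to 1.32 without background correction, which is 2.50-fold and under that bound.

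Macrophages are a known source of CapG, and macrophage and dendritic cell markers were read beside it. Of 14 markers on that list 5 were measured, of which 3 fell and 0 rose, with a median log2 fold change of -0.97. Over all 8234 genes read with 1 probe a gene, 15.4% were called lower and 17.2% higher. Fcer1g was 4.29-fold lower, Tyrobp 2.06-fold lower and Mrc1 1.95-fold lower (limma adjusted p = 8.22e-05, 0.0121 and 0.0210). Lyz2 differed by -0.72 and Cd14 by -0.32, and neither passed the test. The summed level of the measured markers was 511.6 to 841 (linear normalized signal) in Villin-Gremlin villi and 1552 to 2873 in wild type villi. The groups did not overlap and this sum was lower in Villin-Gremlin villi. Fcer1g weighs most in the sum. Its wild type mean was 10.39 (normalized log2), against 7.75 for Tyrobp, 7.67 for Mrc1, 6.79 for Lyz2 and 6.59 for Cd14. Among the Villin-Gremlin arrays the sum was 787.6 to 841 on replicates 3, 4 and 5 and 511.6 and 562.6 on replicates 1 and 2. Both Capg probes were also higher on replicates 3, 4 and 5 than on 1 and 2, but the orders differed. The sum was highest on replicate 4, and both Capg probes were highest on replicate 5. On replicate 4 the Capg probes read 11.13 and 7.78, nearer to replicates 1 and 2 than to 3 and 5. Itgax and Itgam were detected on 0 arrays, and Csf1r, Adgre1, C1qa, C1qb, C1qc and Aif1 on 2 or 3 each. The part of these cells in the Capg value was not tested.

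Gsn, gelsolin, was dim. Its measured probe ILMN_2605645 read 7.47, 6.53, 6.34, 6.64 and 7.54 in Villin-Gremlin 1 to 5, against 4.88 at the lowest, 5.08 at the median and 5.69 at the highest in wild type villi. All 5 Villin-Gremlin arrays were detected and stood above all 6 wild type arrays, which were not detected, and replicates 1 and 5 were the highest. This probe passed the detection rule through Villin-Gremlin villi alone, so its p-value is no separate support for its rise. The bound was at least 1.78-fold higher in Villin-Gremlin villi (limma adjusted p = 1.71e-04 for a fitted log2 fold change of 1.74 ± 0.24 SE). Without background correction the fitted log2 fold change was 0.58, which as a fold is under that bound. The other Gsn probe, ILMN_2679386, was detected on 1 array, Villin-Gremlin 5 at 5.96, and read 4.64 to 5.19 on the other Villin-Gremlin arrays and 4.79 to 5.23 in wild type villi. It was not measured, and the groups overlapped. The annotation ties this probe to a RefSeq transcript and the measured Gsn probe to a different sequence record. Fibroblast and smooth muscle markers, which mark other cells rich in gelsolin, had 3 of 12 measured, and 0 of these passed the test. Over all 8234 genes read with 1 probe a gene, 32.5% passed. The summed level of the measured fibroblast and smooth muscle markers was 115 to 1024 in Villin-Gremlin villi and 394 to 7118 in wild type villi. Col1a1, Col1a2, Lum and Cnn1 were detected on 0 arrays. The part of these cells in the Gsn value was not tested.

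**Figure D2:**
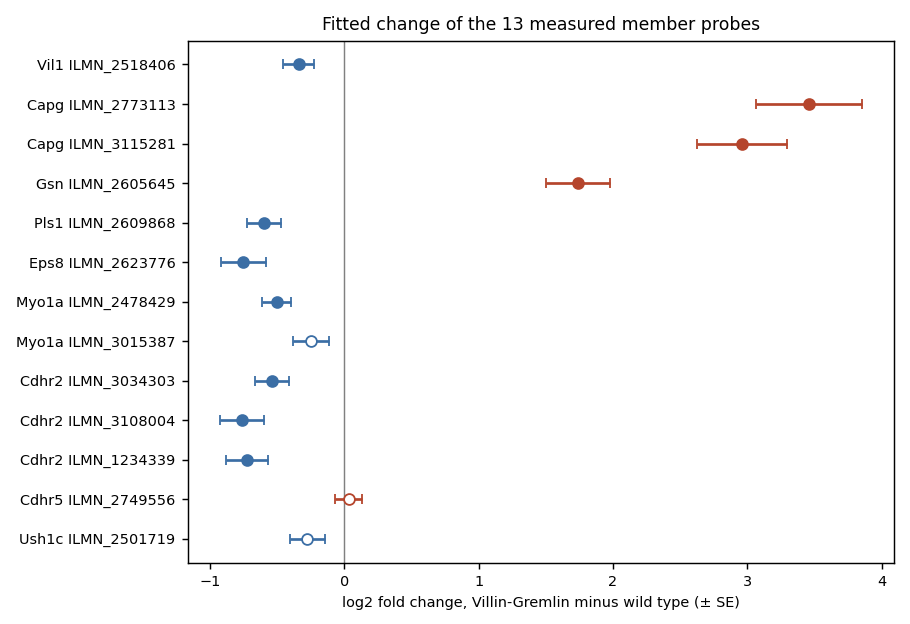
Fitted log2 fold change (Villin-Gremlin minus wild type) of the 13 measured member probes, with bars for the SE of the fit. Filled points have a limma adjusted p under 0.05. Capg and Gsn lie between 1.74 and 3.46, and the 7 lower calls lie between -0.76 and -0.34.

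Both genes of the actin bundle and its tip fell. Pls1 encodes plastin 1, the fimbrin of the intestinal brush border, which crosslinks filaments. It read 14.29, 14.03, 13.76, 13.97 and 13.73 (normalized log2) in Villin-Gremlin 1 to 5, against 14.41 at the lowest, 14.55 at the median and 14.68 at the highest in wild type villi. The groups did not overlap. Pls1 was 1.51-fold lower in Villin-Gremlin villi (log2 fold change -0.60 ± 0.13 SE, limma adjusted p = 0.00323). Eps8, which caps and bundles filaments at the microvillus tip, read 10.04, 10.32, 9.77, 10.23 and 10.56 in Villin-Gremlin 1 to 5, against 10.56 at the lowest, 10.95 at the median and 11.28 at the highest in wild type villi. Villin-Gremlin 5 and wild type 3 nearly met, at 10.559 and 10.563. The log2 fold change of Eps8 was -0.75 ± 0.17 (SE; limma adjusted p = 0.00432), or 1.68-fold lower.

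Myo1a, the brush border myosin that tethers the bundle to the membrane, was lower by 1 of its probes. The annotation names no transcript for that probe and a RefSeq transcript for the other. Probe ILMN_2478429 read 13.51, 13.62, 13.57, 13.63 and 13.50 in Villin-Gremlin 1 to 5, a spread of 0.059 (SD), against 13.88 at the lowest, 14.05 at the median and 14.30 at the highest in wild type villi. It was 1.42-fold lower without overlap (log2 fold change -0.50 ± 0.11 SE, limma adjusted p = 0.00383). Probe ILMN_3015387 read 10.51 to 10.78 in Villin-Gremlin villi and 10.50 to 11.18 in wild type villi, with wild type 2 the lowest of all arrays. Its log2 fold change of -0.25 ± 0.13 (SE; limma adjusted p = 0.178) did not pass, and whether the 2 probes differ was not tested.

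Of the intermicrovillar adhesion complex, Cdhr2 passed the test and Cdhr5 and Ush1c did not, and the differences between these genes were not tested. Cdhr2, a protocadherin of the microvillus tip, was lower by all 3 of its probes, without overlap between groups in any. Probe ILMN_3108004 read 12.99, 13.16, 13.16, 13.35 and 13.75 in Villin-Gremlin 1 to 5, against 13.77 at the lowest, 13.99 at the median and 14.39 at the highest in wild type villi. Its log2 fold change was -0.76 ± 0.16 (SE; limma adjusted p = 0.00324). Probes ILMN_1234339 and ILMN_3034303 gave -0.72 ± 0.16 and -0.54 ± 0.13 (SE; limma adjusted p = 0.00367 and 0.00644). The 3 probes share a gene and are not independent replicates of its change. Villin-Gremlin 5 was the highest Villin-Gremlin array for each of them, at 13.75, 12.72 and 14.21, and stood closest to the wild type arrays.

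Cdhr5, the protocadherin that binds Cdhr2 on the neighbouring microvillus, read 15.05, 14.94, 14.83, 14.95 and 14.92 in Villin-Gremlin 1 to 5, against 14.81 at the lowest, 14.92 at the median and 14.95 at the highest in wild type villi. The groups overlapped, and the log2 fold change was 0.03 ± 0.10 (SE; limma adjusted p = 0.836). The sign turned to -0.02 with median scaling. This probe lay near the top of the scale: its raw signal was 71.2% to 91.9% of the brightest signal on the same array, where a difference is harder to see. The highest signals of Cdhr2 ILMN_3034303, Vil1 and Pls1 also reached 83.8%, 78.8% and 73.3% of their array's brightest. Ush1c, harmonin, read 13.05 to 13.55 by probe ILMN_2501719 in Villin-Gremlin villi and 13.41 to 13.80 in wild type villi. Its log2 fold change of -0.27 ± 0.13 (SE; limma adjusted p = 0.131) did not pass. Villin-Gremlin 1 and 2 lay inside the wild type range and the other 3 below it. A second Ush1c probe, ILMN_2484636, was detected on 0 arrays.

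**Figure D3:**
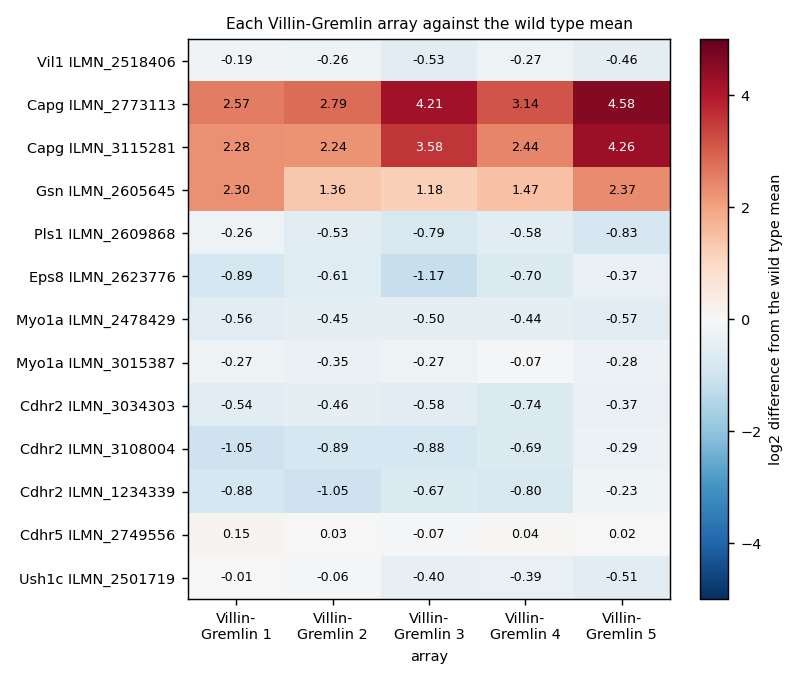
Log2 difference of each Villin-Gremlin array from the wild type mean, for the 13 measured member probes (rows) and the 5 arrays (columns), red where higher and blue where lower than wild type. Capg is raised most on Villin-Gremlin 3 and 5 (4.21 and 4.58 by ILMN_2773113), and Cdhr2 is closest to wild type on Villin-Gremlin 5.

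Among the Villin-Gremlin arrays the members differed in which arrays stood out. For both Capg probes the highest arrays were replicates 5 and 3, which were also the lowest for Pls1 (13.73 and 13.76), for Vil1 (14.13 and 14.05) and for Ush1c (13.05 and 13.17). Replicate 3 was lowest for Eps8, at 9.77, whereas replicate 5 was the highest for Eps8 and Cdhr2. In the authors' log2 values replicates 5 and 3 were again highest for both Capg probes, and replicate 5 was again the lowest for Vil1 (14.20), Pls1 (13.77) and Ush1c (13.05). Replicate 3 was not among the lowest 2 there for any of these 3 genes: the next lowest was replicate 2 for Vil1 and Pls1 and replicate 4 for Ush1c. The summed enterocyte markers were lowest on replicates 5 and 3 (161799 and 166875 in linear normalized signal), with replicate 4 nearly level with 3 at 167183. Summed tuft cell markers were also lowest on replicates 5 and 3 (634.6 and 719). The part of cell composition in these orders was not tested.

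Several marker lists of cell types differed between the groups. Over all 8234 genes read with 1 probe a gene, 15.4% were called lower and 17.2% higher. The measured enterocyte markers summed to 161799 to 178595 in Villin-Gremlin villi and 210411 to 242551 in wild type villi, with 5 of 10 measured members lower and 0 higher. T cell and intraepithelial lymphocyte markers had 8 of 9 measured members lower and sums of 5642 to 7734 in Villin-Gremlin villi and 12091 to 18785 in wild type villi. The marker not called, Cd8b1, differed by -0.02 by its brightest probe. That probe weighs most in the Villin-Gremlin sums, at a mean of 11.95 (normalized log2). The other kept Cd8b1 probe differed by -2.10 (limma adjusted p = 2.21e-04). Tuft cells, which carry long microvilli and express villin and advillin, had 4 of 5 measured markers lower and sums of 634.6 to 907 in Villin-Gremlin villi and 1255 to 1392 in wild type villi. Goblet and Paneth cell sums overlapped (76604 to 83400.5 in Villin-Gremlin and 72882 to 98367 in wild type villi), as did the 1 measured endothelial marker, Lyve1. Of 8 measured goblet and Paneth cell markers, 2 were called higher, 1 lower and 5 not called. Spink4 was 2.68-fold higher without overlap, Agr2 1.48-fold higher and Clca1 1.51-fold lower (limma adjusted p = 2.45e-05, 0.0252 and 0.0218). The part of these shifts in the member values was not tested.

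**Figure D4:**
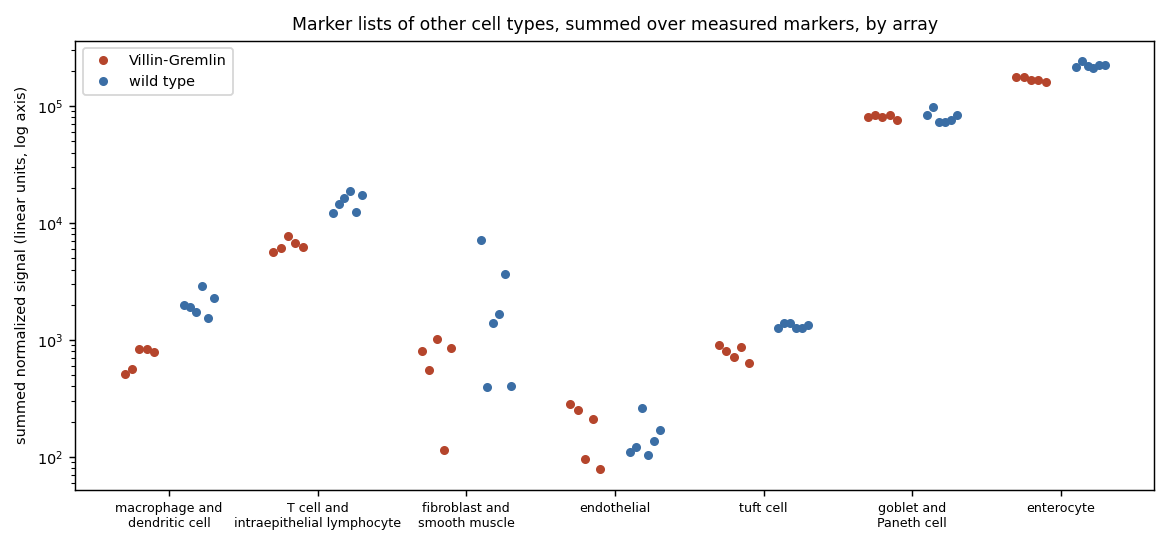
Summed normalized signal (linear units on a log axis) of the measured markers of 7 cell type lists, 1 point per array, with Villin-Gremlin left of wild type for each list. Sums of the macrophage, T cell, tuft cell and enterocyte lists are lower in Villin-Gremlin villi without overlap.

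Other genes of the microvillus and its cytoskeleton were counted with 1 probe a gene, the brightest over all arrays. Of 56 genes on 6 lists 43 were measured, 14 lower and 2 higher in Villin-Gremlin villi, with a median log2 fold change of -0.10. Over all 8234 genes read this way 32.5% were called, 15.4% lower and 17.2% higher, with a median of -0.00015. The largest fall detected in both groups was Pdzk1, a scaffold under the apical membrane, 2.66-fold lower (log2 fold change -1.41 ± 0.18 SE, limma adjusted p = 9.59e-05), at 12.64 to 13.65 in Villin-Gremlin and 14.59 to 14.71 in wild type villi. All 3 of its kept probes were lower.

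Of 3 measured genes of the ezrin family's partners (8 on the list), Pdzk1 and Slc9a3r1, the scaffold that binds ezrin, fell. Slc9a3r1 fell by 0.69 on the log2 scale (SE 0.12, limma adjusted p = 8.29e-04), and the kinase gene Slk differed by 0.23. Rdx and Msn, the relatives of ezrin, were detected on 0 arrays. Of 4 other measured gelsolin superfamily genes (5 on the list) only Svil, supervillin, fell, by 0.71; it was detected on 1 of 5 Villin-Gremlin and 5 of 6 wild type arrays, and its groups overlapped. Without background correction Svil differed by -0.24. Avil, Scin and Flii differed by -0.28, 0.25 and -0.26 and did not pass.

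Among 14 measured genes of bundling, tips and filament ends (17 on the list), 5 fell and 1 rose. Cobl, an actin nucleator at the base of microvilli, was 2.14-fold lower (10.69 to 11.02 in Villin-Gremlin and 11.43 to 12.26 in wild type villi; limma adjusted p = 3.93e-04). Espn, the bundling protein espin, was 1.79-fold lower (limma adjusted p = 6.44e-04), and all 3 of its kept probes were lower. Lcp1, the plastin of leukocytes, had detected signal on all 6 wild type arrays but on 0 of 5 Villin-Gremlin arrays, a bound of at least 1.60-fold lower, beside the lower T cell sums above. Without background correction Lcp1 was 1.39-fold lower, under that bound. Twf1, twinfilin, which caps filaments and binds actin monomers, was 2.41-fold higher (8.39 to 8.97 in Villin-Gremlin and 7.18 to 7.93 in wild type villi; limma adjusted p = 1.13e-04), and 1.75-fold higher without background correction. The Eps8 relatives Eps8l2 and Eps8l3 fell by 0.51 and 0.68 on the log2 scale.

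In the terminal web and its filaments, 3 of 13 measured genes fell and 1 rose (16 on the list). Krt19, a keratin of simple epithelia, was 4.89-fold higher (13.31 to 13.56 in Villin-Gremlin and 10.70 to 11.77 in wild type villi; limma adjusted p = 8.96e-06). Krt20, a keratin of differentiated enterocytes, fell by 0.47, Myo1e, a membrane-binding myosin, by 0.72 and Tpm1, a tropomyosin, by 0.40 on the log2 scale. The second Tpm1 probe differed by -0.19 and did not pass. For Sptbn1 the brightest probe differed by -0.33 and did not pass, while its other kept probe fell by 0.54 (limma adjusted p = 0.0240). The probes of Actb, cytoplasmic actin, disagreed. Its brightest probe differed by 0.02 (limma adjusted p = 0.885), 2 others by 0.19 and 0.44 without passing, and 2 more rose by 3.17 and 3.22 on the log2 scale (limma adjusted p = 2.08e-04 and 5.34e-04), with detection on 5 of 5 Villin-Gremlin arrays and on 3 and 4 of 6 wild type arrays. The brightest Actb probe lay at 76.2% to 89.8% of the brightest signal on each array, near the top of the scale. Of 2 measured partners of the adhesion complex (3 on the list), the motor gene Myo7b fell by 0.52 (limma adjusted p = 0.0425), and Calml4 differed by -0.18. In apical trafficking 2 of 7 fell, the syntaxin gene Stx3 by 0.67 with all 3 of its kept probes lower, and Vps33b by 0.75, whose other kept probe did not pass. On the same list, Myo5b differed by 0.28 by its brightest probe and by 0.33 by another, and neither passed. A further Myo5b probe rose by 0.50 (limma adjusted p = 0.0344). The call of Myo7b was lost with 8 of the 11 arrays left out singly (adjusted p up to 0.0923), with median scaling (0.0624), with no detection filter (0.0904) and without Villin-Gremlin 5 and wild type 1 together (0.0669). That of Tpm1 was lost with 6 of the 11 left out singly (adjusted p up to 0.0618).

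**Figure D5:**
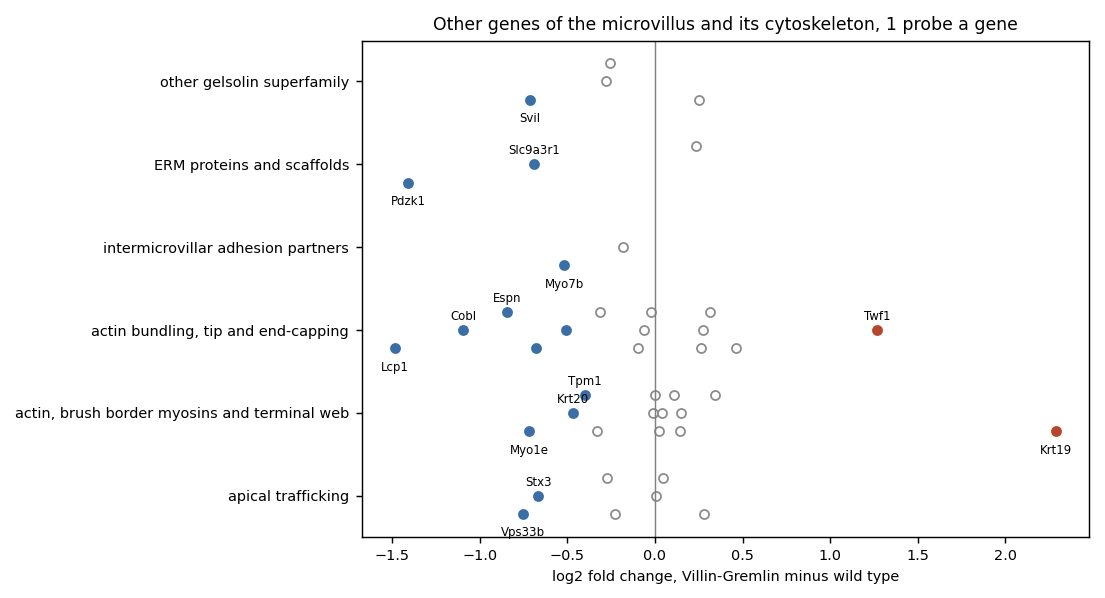
Log2 fold change (Villin-Gremlin minus wild type) of the 43 measured genes on 6 lists of the microvillus and its cytoskeleton, 1 point per gene. Filled points have a limma adjusted p under 0.05, red higher and blue lower; Krt19 (2.29) and Twf1 (1.27) are the 2 higher calls, and 14 are lower.

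Genes nearest in pattern to Vil1 and Capg were taken as those with the smallest mean absolute difference over the 11 arrays, after each gene was centred on its own mean, among 8225 other genes. This measure is also small for any gene that varies little. For Vil1 these were Rab11b, Katna1 and Rab33b, at 0.068, 0.075 and 0.078 on the log2 scale. Their log2 fold changes were -0.25, -0.27 and -0.22, and none passed (limma adjusted p = 0.115, 0.0638 and 0.174). For Capg they were Ldhd, Slc11a2 and Tspan12, at 0.43, 0.46 and 0.50. Each was higher, by 2.60, 3.43 and 2.47 (limma adjusted p = 7.25e-05, 1.33e-04 and 5.17e-04).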

How the data were processed

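Total RNA of villi was turned into biotinylated cRNA and read on Illumina bead arrays, per the labels' protocols. The authors deposited a mean bead signal (an intensity on a linear scale, neither background-subtracted nor normalized, per the file headers) and a detection p-value per probe. A second deposited table holds the authors' log2 values, normalized in a way that no source used here states. Set against the log2 raw signals, a column correlated best with its own array for 11 of 11 arrays across the kept probes (0.983 to 0.990 with its own) but for 10 of 11 across all 45281 probes, so columns were assigned by name alone. Column medians were 5.04 to 5.13.

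The signals went through neqc (limma 3.58.1, R 4.3.3; normal-exponential background from the detection p-values, offset 16, log2, quantile normalization). Kept probes had detection p-values under 0.01 on 5 or more arrays. Each probe was fitted with lmFit and eBayes, with genotype as the sole term, and adjusted by Benjamini-Hochberg over 14203 probes. For a bound, the dim group's arrays each took the lowest detected value, or the probe's own where higher, and their mean was set against the bright group's. Such a bound holds within the background-corrected values only. The number of arrays limits precision.

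Symbols came from the platform annotation, updated through Entrez identifiers: 34885 probes carried 1 symbol, 18 several and 10378 none. Named were all members, Grem1, up to 3 called genes in each direction per list with the largest change, and the 3 genes nearest to Vil1 and to Capg. Marker genes, Eps8l2, Eps8l3 and uncalled list members are named as members of the lists. The members and lists were chosen with earlier results of these data known. The fit was repeated with median scaling, without background correction, with a larger offset (50), on the authors' values, with detection asked of every array or of none, with 1 probe a gene, with array weights, with a trended robust prior, with replicate number as a block, and with arrays left out. The titles and the descriptions number the arrays differently. Same-numbered arrays correlated by -0.21 to 0.12 (titles) and by -0.16 to 0.12 (descriptions) in their deviations from the group means, so neither numbering was taken to pair them. The design text gives 6 mice per group, and 5 Villin-Gremlin arrays were analysed here. Promoter sequences are RefSeq's, GRCm38.p6.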

Additional observations from a re-analysis of the deposited data

Results flagged for a closer look

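In 2 of the 26 groups of arrays examined, 1 array lay apart from the rest by more than Dixon's 95% critical value, which chance gives in about 1 of 20 groups. Villin-Gremlin 4 read 10.78 with the Myo1a probe ILMN_3015387, against 10.51 to 10.58 on the other 4 Villin-Gremlin arrays. Wild type 2 read 14.97 with the Cdhr2 probe ILMN_3034303, against 14.40 to 14.61 on the other 5 wild type arrays. Without wild type 2 the Cdhr2 probe's log2 fold change was -0.46.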

How the results depend on the processing

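Of the 13 member probes, every one except Cdhr5 kept its direction under each of the alternatives it could be run in, and every call except that of Vil1 was kept. The Vil1 call was lost with array weights (-0.27) and without Villin-Gremlin 5 and wild type 1 together (-0.27), besides the alternatives given above. Cdhr5 turned to -0.0152 with median scaling. With median scaling 1515 probes were higher and 1883 lower, 44.6% of calls higher against 53.2%, and the median of all probes was -0.08. With 1 array left out, 1995 to 2335 probes were higher and 1694 to 1994 lower, and 3 member probes were higher and 6 to 7 lower. Left-out arrays gave 2 cytoskeletal genes higher and 12 to 14 lower, and 1 to 2 marker genes higher and 20 to 21 lower. Detection on all arrays left 1 member probe higher, since 2 were not tested there. With 1 probe a gene, 1476 were higher and 1316 lower, as fewer features were tested. Array weights, and leaving out Villin-Gremlin 5 and wild type 1, each gave 4 cytoskeletal genes higher; the cause was not tested. Median scaling, no detection filter, and that same pair left out each gave 1 marker gene higher. With the replicate block 1860 probes were higher and 1543 lower, 6 member probes lower, and 11 cytoskeletal genes lower against 14. Vil1 (-0.36, limma adjusted p = 0.0937), Myo7b (0.0825), Tpm1 (0.0672) and Eps8l3 (0.0504) lost their calls there. With the description number as replicate block, chosen after seeing the data, 1887 probes were higher and 1745 lower, 6 member probes and 12 cytoskeletal genes were lower, and 1 marker gene was higher. Vil1 (-0.29, limma adjusted p = 0.147), Myo7b (0.0515) and Tpm1 (0.103) lost their calls there. Neither set of numbers was taken to pair the arrays, though the correlations given above cannot exclude a shared source or batch. Without background correction, dim probes had smaller fitted values, such as Capg ILMN_3115281 (1.32) and Gsn (0.58). Signal near background limits Gsn and the second Capg probe, and signal near the top of the scale limits Cdhr5 and the bright probes of Cdhr2, Vil1 and Pls1.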
